A study of Homo sapiens with 4 samples.

Results

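Neural crest specifiers were followed here as 10 genes, SOX10, FOXD3, PAX3, PAX7, SNAI2, NGFR, TWIST1, TFAP2B, EDNRB and MSX1, out of 18640 genes measured. The members were chosen by symbol, by taking each array feature whose only gene symbol was one of the 10. This gave 84 probesets, small groups of probes within an exon, out of 247035 used. MSX1, PAX3 and PAX7 act early, at the border of the neural plate, and FOXD3, SOX10, SNAI2, TWIST1 and TFAP2B in the crest itself, while NGFR and EDNRB are cell surface receptors of crest cells. EDNRB was also named by 1 probeset shared with another gene, which was left out.

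The samples were embryoid bodies, floating aggregates of differentiating stem cells, here of BG01V. This human line of embryonic stem cells carries a variant karyotype. One group received 10 µM TBBD, also known as ellagic acid and named in the title as blocking H3R17 methylation, for 48 h, and the other received the vehicle DMSO. Both groups were plated on gelatin in medium with 20% serum replacement and 10% fetal bovine serum, and treatment generally fell between day 2 and day 4 of embryoid body formation. Each group held 2 arrays, TBBD replicates 1 and 2 and DMSO replicates 1 and 2, all from the same line. Neither what a shared replicate number stands for nor whether the replicates were separate cultures is given in the labels, so each p-value speaks only of the spread among these 4 samples, which may be technical.

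The neural crest is a migratory population of the vertebrate embryo that arises where the neural plate meets the future epidermis. Signals of the BMP, Wnt and FGF families first switch on border genes, border genes then switch on crest specifiers, and crest cells leave the epithelium by an epithelial to mesenchymal transition. The cells go on to form peripheral neurons and glia, melanocytes and much of the facial skeleton. None of the 10 genes is exclusive to the crest: TWIST1, SNAI2 and MSX1 are also active in mesenchyme and mesoderm, PAX3 and PAX7 in somites and the dorsal neural tube, and EDNRB in endothelium.

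Values were log2 RMA signals, averaged over the probesets of a gene on each array. The median over all probesets lay between 6.39 and 6.42 on the 4 arrays. No detection call was used, and having 4 arrays limits the precision. The 371 olfactory receptor genes, whose products serve smell, gave a guide to a dim signal, with a median of 5.40, a 5th to 95th percentile from 5.17 to 5.66 and a highest gene at 6.30. Probes differ in brightness, so the levels of different genes were not ranked. In these bulk samples, fewer cells of a type and less RNA per cell cannot be told apart.

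Between TBBD and DMSO no crest specifier passed the test, whereas 2 of the 10 rose on the replicate 2 arrays relative to the replicate 1 arrays. TFAP2B, a transcription factor of the AP-2 family, was 2.60-fold higher on the replicate 2 arrays, a log2 difference of 1.38 ± 0.13 (SE, n = 2 arrays per number). NGFR, the low-affinity neurotrophin receptor used as a crest surface marker, was 1.54-fold higher, at 0.62 ± 0.11 (SE, n = 2 arrays per number). The TFAP2B fold may be compressed, since its replicate 1 values lay near the dim range. Limma's moderated test with Benjamini-Hochberg adjustment over all genes gave adjusted p = 0.00302 for TFAP2B and adjusted p = 0.025 for NGFR. Between the replicate numbers 1001 of 18640 genes passed this test (5.37% of all genes), 3.35% of all genes being higher and 2.02% lower on the replicate 2 arrays. Between TBBD and DMSO limma called 0 of 18640 (0.0% of all genes), and 139 had an unadjusted p under 0.05.

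The promoters of TFAP2B, PAX3 and MSX1 are shown as examples, chosen after their values were seen. TFAP2B passed the test between the replicate numbers, and PAX3, higher on both replicate 2 arrays, and MSX1, lower on both, did not (limma adjusted p = 0.0952 and adjusted p = 0.144). Each window runs from 250 bases before to 50 after the gene's start in RefSeq (GRCh38.p14), written 5′ to 3′ on the gene's strand, and capitals mark CCAAT or TATAAA on either strand.
TFAP2B, chr6:50818621-50818920, plus strand: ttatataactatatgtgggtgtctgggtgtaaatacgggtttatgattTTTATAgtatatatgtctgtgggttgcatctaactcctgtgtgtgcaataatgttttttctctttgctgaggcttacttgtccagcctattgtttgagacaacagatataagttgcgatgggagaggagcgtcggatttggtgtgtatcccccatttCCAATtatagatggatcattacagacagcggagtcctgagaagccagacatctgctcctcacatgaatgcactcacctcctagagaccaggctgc
PAX3, chr2:222298949-222299248, minus strand: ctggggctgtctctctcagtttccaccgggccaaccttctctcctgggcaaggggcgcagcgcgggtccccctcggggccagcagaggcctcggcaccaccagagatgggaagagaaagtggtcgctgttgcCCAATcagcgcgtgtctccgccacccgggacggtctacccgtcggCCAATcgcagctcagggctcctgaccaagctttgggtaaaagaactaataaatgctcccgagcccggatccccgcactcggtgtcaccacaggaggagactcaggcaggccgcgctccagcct
MSX1, chr4:4859415-4859714, plus strand: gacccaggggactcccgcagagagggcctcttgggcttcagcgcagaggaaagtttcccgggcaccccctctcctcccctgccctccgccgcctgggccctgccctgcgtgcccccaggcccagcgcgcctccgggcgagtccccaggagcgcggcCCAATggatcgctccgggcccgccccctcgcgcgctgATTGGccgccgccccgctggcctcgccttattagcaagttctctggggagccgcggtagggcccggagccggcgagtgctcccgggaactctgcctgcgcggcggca

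CCAAT was found once in the TFAP2B window and at 2 places in each of the PAX3 and MSX1 windows, and 34.6% of the 35116 promoter windows of that length held it. TATAAA was found in the TFAP2B window alone of these 3, against 11.5% of all windows. It was read there on the opposite strand and nearer the window's 5′ end than the gene's start, and its use was not tested. The TFAP2B window was also poorer in G and C, at 43.0%, than those of PAX3 at 64.7% and MSX1 at 74.7%, with a median of 58.7% over all windows. The E-box CANNTG, of which SNAI2 and TWIST1 bind only some forms, was searched for on both strands. It was found at 2 places in the TFAP2B window and at 0 places in those of PAX3 and MSX1, and 68.7% of all windows held it. The narrower form CACCTG was found in none of the 3 windows and in 20.6% of all. GCCNNNGGC, bound by AP-2 factors, was found in none of the 3 windows and in 23.2% of all. The table held windows for 6 of the 10 genes, the others being FOXD3, PAX7 and EDNRB.

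Among the border genes, MSX1 encodes a homeodomain repressor that BMP signalling induces. Its log2 signal was 6.88 in TBBD replicate 2 and 7.17 in TBBD replicate 1, against 6.97 in DMSO replicate 2 and 7.33 in DMSO replicate 1. The treatments overlapped, and both replicate 2 arrays lay below both replicate 1 arrays. Replicate 2 minus replicate 1 was -0.28 within TBBD and -0.36 within DMSO, and the fitted difference of -0.32 ± 0.11 (SE) did not pass (limma adjusted p = 0.144). By treatment MSX1 differed by -0.086 in replicate 2 and by -0.16 in replicate 1. Among 5 MSX1 probesets, 4 were lower on the replicate 2 arrays and 1 was higher, with differences between -0.95 and 0.36.

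PAX3, a paired-box factor needed for crest and dorsal neural tube, had a log2 signal of 6.10 in TBBD replicate 2 and 5.59 in TBBD replicate 1, against 6.37 in DMSO replicate 2 and 5.89 in DMSO replicate 1. Only DMSO replicate 2 lay above the highest olfactory receptor gene, 6.30, and TBBD replicate 1 lay below their 95th percentile, 5.66. Each TBBD array lay below the DMSO array of its own number, at differences of -0.27 in replicate 2 and -0.30 in replicate 1, and both replicate 2 arrays lay above both replicate 1 arrays. Neither comparison passed limma's test, with a TBBD minus DMSO difference of -0.28 ± 0.25 (SE, adjusted p = 1) and a replicate 2 minus replicate 1 difference of 0.50 ± 0.14 (SE, adjusted p = 0.0952). The 17 PAX3 probesets were not uniform. On 12 of them both replicate 2 arrays stood above both replicate 1 arrays, and on 3 both stood below, with differences from -1.46 to 1.52. With TBBD 15 of the 17 were lower and 2 higher, although only 1 of them had both TBBD arrays below both DMSO arrays.

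PAX7, the paralog of PAX3, had 5.94 in TBBD replicate 2 and 5.31 in TBBD replicate 1, against 5.51 in DMSO replicate 2 and 5.41 in DMSO replicate 1. Only TBBD replicate 2 lay above the 95th percentile of the olfactory receptors, and it lay below their highest gene, 6.30. Whether PAX7 was expressed is therefore uncertain on every array. Its TBBD minus DMSO difference was 0.43 in replicate 2 and -0.10 in replicate 1. This gap of 0.53 between the numbers was larger in size than that of 92.5% of genes, and it has no replicate of its own. The fitted TBBD difference was 0.17 ± 0.23 (SE, limma adjusted p = 1). Taking each array's median probeset instead gave 0.64, also at limma adjusted p = 1. Replicate 2 minus replicate 1 was 0.36 ± 0.15 (SE, limma adjusted p = 0.224), 0.63 within TBBD and 0.099 within DMSO. The 11 PAX7 probesets had mean levels from 3.66 to 7.70, so the gene mean hides a wide spread. Between the numbers 9 of them were higher and 2 lower, from -0.34 to 1.23, the largest on the dimmest probeset. With TBBD 7 were higher and 4 lower.

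**Figure D1:**
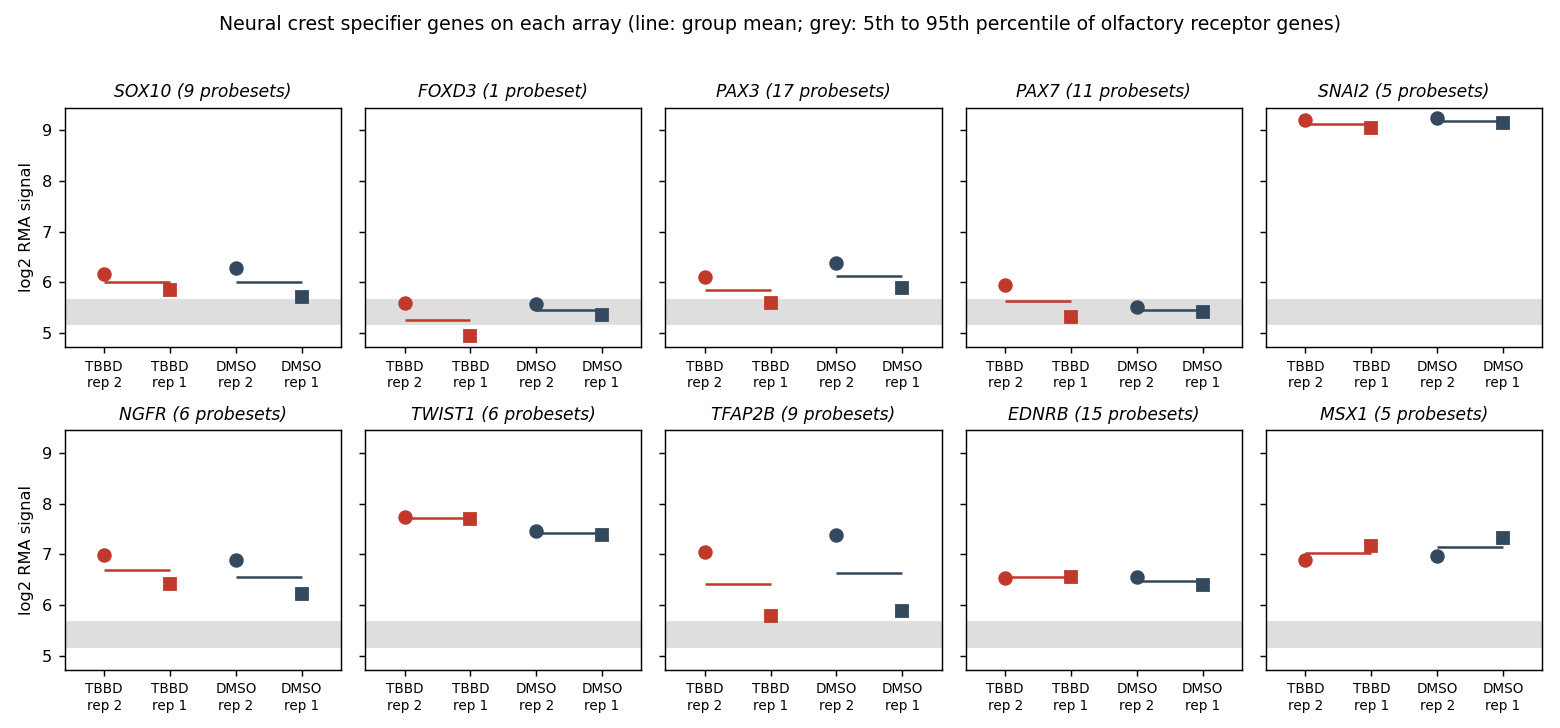
Log2 RMA signal (vertical axis) of each crest specifier gene on the 4 arrays, with circles for replicate 2, squares for replicate 1, red for TBBD and dark blue for DMSO; lines are the means of the 2 arrays of a treatment and the grey band spans 5.17 to 5.66, the 5th to 95th percentile of olfactory receptor genes. In 8 genes the arrays separate by replicate number, as in 51.0% of all genes, with the widest gap in TFAP2B, and in 1, TWIST1, by treatment, as in 20.9% of all genes.

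Of the crest transcription factors, TFAP2B showed the widest spread over the arrays. Its log2 signal was 7.04 in TBBD replicate 2 and 5.79 in TBBD replicate 1, against 7.38 in DMSO replicate 2 and 5.88 in DMSO replicate 1. The replicate 1 arrays lay above the 95th percentile of the olfactory receptors, 5.66, and below their highest gene, 6.30, and the replicate 2 arrays lay above both. Of its 9 probesets, 6 in TBBD replicate 1 and 5 in DMSO replicate 1 read within the 5th to 95th percentile. Replicate 2 minus replicate 1 was 1.25 within TBBD and 1.50 within DMSO, and the fitted difference had a 95% confidence interval from 1.06 to 1.69. It was larger in size than that of 99.5% of all genes. By treatment it differed by -0.35 in replicate 2 and -0.094 in replicate 1, and the fitted -0.22 ± 0.63 (SE, adjusted p = 1) carried an error that also holds the difference between the numbers.

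All 9 probesets of TFAP2B had both replicate 2 arrays above both replicate 1 arrays. Their differences ran from 0.77 to 2.13, with a median of 1.17. The pair with the largest differences also had the highest mean levels over all arrays, at 7.55 and 7.78. The others had means between 5.79 and 7.04. These means include the replicate 2 arrays, so a large difference itself raises them. In DMSO replicate 1 the brightest probeset, at 6.88, was the one with the smallest difference, 0.77. In TBBD replicate 1 that probeset read 6.44, between the pair at 6.38 and 6.91. Among the 84 probesets of the 10 genes, 48 had both replicate 2 arrays above (21.1% of all probesets did) and 9 had both below (21.6% of all probesets). The probesets of 1 gene share its transcript and are not independent. Fitted singly over all probesets, none of the 84 passed limma's adjusted threshold (0.0% of all probesets did), and 36 had an unadjusted p under 0.05 (12.4% of all probesets).

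SOX10, which is maintained in migrating crest and in its glial and melanocyte descendants, had 6.16 in TBBD replicate 2 and 5.85 in TBBD replicate 1, against 6.28 in DMSO replicate 2 and 5.71 in DMSO replicate 1. All of these values lay above the 95th percentile of the olfactory receptors, 5.66, but below their highest gene, 6.30. Both replicate 2 arrays lay above both replicate 1 arrays, by 0.31 within TBBD and 0.57 within DMSO. The fitted difference of 0.44 ± 0.11 (SE) missed the threshold (limma adjusted p = 0.0637). It passed among genes with at least 3 probesets (limma adjusted p = 0.0477) and among the brightest 2 of 3 genes (limma adjusted p = 0.0481). It missed with quantile normalization (limma adjusted p = 0.0845), the median over probesets (limma adjusted p = 0.2235) and treatment as a further term (limma adjusted p = 0.1176). Of its 9 probesets 7 separated the numbers in that direction and none in the other. SOX10 had the smallest TBBD minus DMSO difference of the 10 genes, 0.011, made of -0.12 in replicate 2 and 0.14 in replicate 1.

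FOXD3, a forkhead factor of early crest that is also active in pluripotent stem cells, was measured on 1 probeset. Its log2 signal was 5.59 in TBBD replicate 2 and 4.94 in TBBD replicate 1, against 5.57 in DMSO replicate 2 and 5.34 in DMSO replicate 1. All 4 values lay within the 5th to 95th percentile of the olfactory receptors or below it, so its expression is uncertain. Both replicate 2 arrays lay above both replicate 1 arrays, at 0.44 ± 0.14 (SE, limma adjusted p = 0.139). The treatments overlapped, with TBBD minus DMSO at 0.023 in replicate 2 and -0.41 in replicate 1.

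SNAI2, a zinc finger repressor of epithelial genes, read 9.20 in TBBD replicate 2 and 9.04 in TBBD replicate 1, against 9.24 in DMSO replicate 2 and 9.15 in DMSO replicate 1. The whole range over the 4 arrays was 0.20, the treatments overlapped, and both replicate 2 arrays lay above both replicate 1 arrays. TBBD minus DMSO was -0.075 ± 0.12 (SE), with a 95% confidence interval from -0.39 to 0.24, and replicate 2 minus replicate 1 was 0.12 ± 0.10 (SE). Neither passed limma's test (adjusted p = 1 and adjusted p = 0.566). Of its 5 probesets 3 had mean signals of 11.67, 11.19 and 10.74, and the other two 6.45 and 5.74.

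TWIST1, a basic helix-loop-helix factor of cranial crest and of mesenchyme, was the only member in which the TBBD and DMSO arrays did not overlap (20.9% of all genes did not). Its log2 signal was 7.74 in TBBD replicate 2 and 7.70 in TBBD replicate 1, against 7.46 in DMSO replicate 2 and 7.39 in DMSO replicate 1. Both TBBD arrays were the higher ones, by 0.28 in replicate 2 and 0.31 in replicate 1. The fitted difference was 0.30 ± 0.11 (SE), with a 95% confidence interval from 0.0075 to 0.58 and an unadjusted limma p of 0.0461 (0.746% of all genes had one under 0.05), and it did not pass (adjusted p = 1). Its interval included 0 with the median over probesets, an intensity trend, the dimmer genes left out or any 1 array left out, at unadjusted limma p from 0.056 to 0.179. All 6 of its probesets were higher with TBBD on average, by 0.015 to 0.66, and 3 of them had both TBBD arrays above both DMSO arrays. Over the 84 probesets of the 10 genes, 8 had both TBBD arrays above (13.2% of all probesets), 5 had both below (13.1% of all probesets), and 2 had an unadjusted p under 0.05 (2.69% of all probesets). Mesenchyme markers, of a cell type that also uses TWIST1, lay higher with TBBD in 10 of 12 cases (48.8% of all genes did). Their median was 0.12, at 0.17 in replicate 2 and 0.0075 in replicate 1, and 0 passed the test. Endothelial markers lay higher in 6 of 8 cases, surface ectoderm and amnion markers in 8 of 10, and undifferentiated stem cell markers in 0 of 8. The part of these markers in the TWIST1 value was not tested. Between the numbers TWIST1 differed by 0.053 ± 0.15 (SE), and by -0.072 with the median over probesets.

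**Figure D2:**
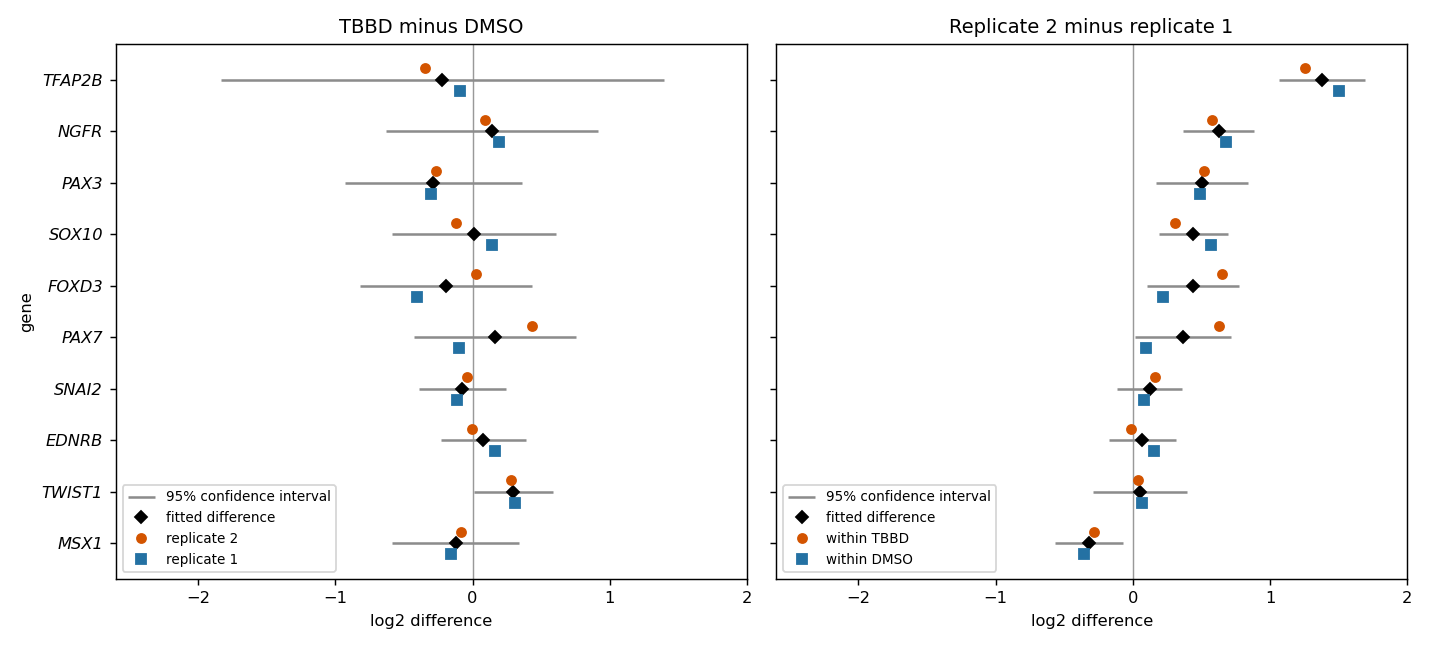
Log2 differences (horizontal axes) of the 10 genes, TBBD minus DMSO on the left and replicate 2 minus replicate 1 on the right, with diamonds for limma's fitted difference, grey lines for its 95% confidence interval, orange circles for the difference within replicate 2 (left) or TBBD (right), and blue squares for that within replicate 1 (left) or DMSO (right). The intervals of TBBD minus DMSO cross 0 for all genes but TWIST1, whose lower limit is 0.0075, and TFAP2B lies farthest from 0 on the right. On the left they come from the fit without the replicate number, so their error also holds the difference between the numbers. With the number as a block, the PAX3 interval ran from -0.55 to -0.014, and PAX3 did not pass.

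The receptor genes differed from each other. NGFR had a log2 signal of 6.99 in TBBD replicate 2 and 6.41 in TBBD replicate 1, against 6.89 in DMSO replicate 2 and 6.22 in DMSO replicate 1. Both replicate 2 arrays stood above both replicate 1 arrays, by 0.57 within TBBD and 0.68 within DMSO. Of its 6 probesets 5 separated the numbers in that direction and 1 was lower on average, at -0.27, while the largest reached 1.53. The call ended with the median over probesets, at 0.23 (limma adjusted p = 0.463), without TBBD replicate 2, at 0.58 (limma adjusted p = 0.121), without DMSO replicate 1, at 0.53 (limma adjusted p = 0.0909), and without DMSO replicate 2, at 0.67 (limma adjusted p = 0.0513). The treatments differed by 0.093 in replicate 2 and 0.20 in replicate 1, fitted at 0.14 ± 0.30 (SE, limma adjusted p = 1).

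EDNRB, the endothelin receptor needed by melanocyte and enteric precursors, had 6.54 in TBBD replicate 2 and 6.56 in TBBD replicate 1, against 6.55 in DMSO replicate 2 and 6.39 in DMSO replicate 1. Neither the treatments nor the numbers separated, and the fitted differences were 0.079 ± 0.12 (SE) for TBBD minus DMSO and 0.070 ± 0.10 (SE) for replicate 2 minus replicate 1. Its 15 probesets did not move as 1 block. Between the numbers 5 were higher and 10 lower, and the gene's difference became -0.24 with the median over probesets. The probeset with the largest difference read 8.54 in TBBD replicate 2 and 7.08 in TBBD replicate 1, against 8.55 in DMSO replicate 2 and 6.63 in DMSO replicate 1, and separated the numbers. The brightest one read 8.98 in TBBD replicate 2 and 9.42 in TBBD replicate 1, against 8.99 in DMSO replicate 2 and 8.93 in DMSO replicate 1, and did not separate them.

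**Figure D3:**
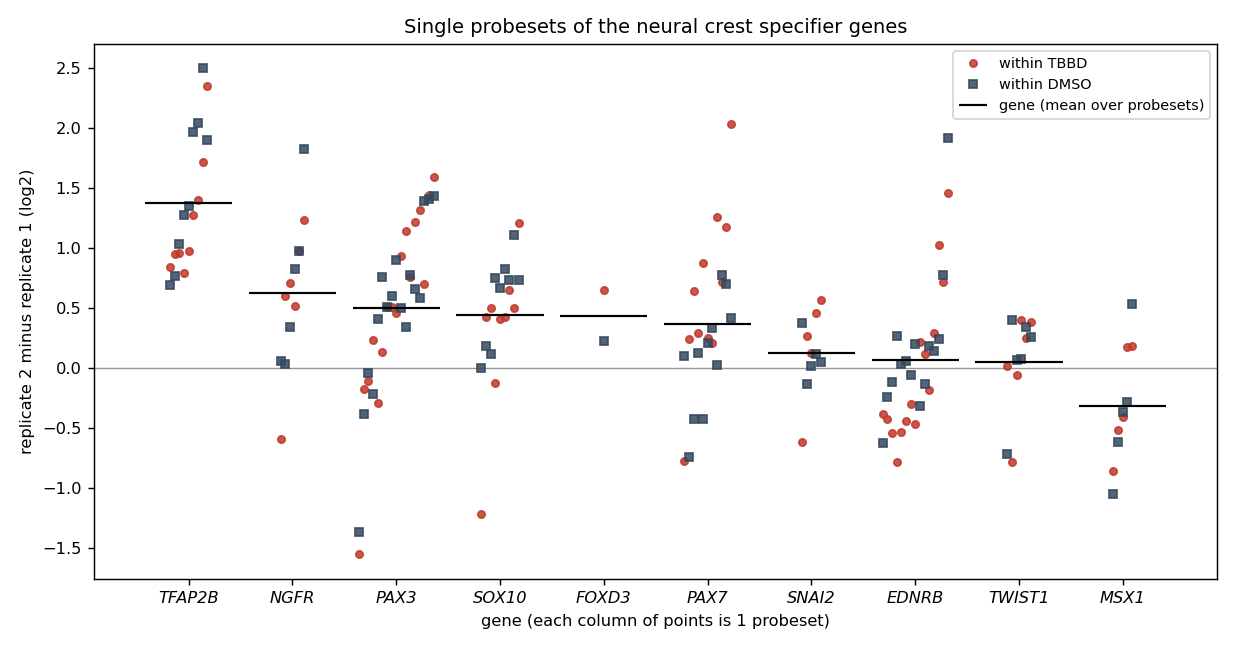
Replicate 2 minus replicate 1 in log2 signal (vertical axis) for every single probeset of the 10 genes, with red circles for the difference within TBBD, dark blue squares for that within DMSO, and black lines for the fitted value of the gene. All 9 probesets of TFAP2B lie above 0, and those of PAX3 and EDNRB spread to both sides.

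In 8 of the 10 the fitted difference between the numbers was larger in size than that between TBBD and DMSO, the exceptions being TWIST1 and EDNRB. The difference between the numbers was the larger one in 66.3% of all genes. With TBBD 5 lay higher and 5 lower, with a median log2 difference of -0.032, against a median of -0.0035 over all genes tested. In 4 genes, SOX10, FOXD3, PAX7 and EDNRB, the sign of TBBD minus DMSO differed between the replicate numbers, as it did in 55.4% of all genes. On the replicate 2 arrays 9 lay higher and 1 lower, with a median of 0.40 against -0.0024 over all genes, 0.41 within TBBD and 0.19 within DMSO. Both replicate 2 arrays lay above both replicate 1 arrays in 7 members (25.1% of all genes did) and below in 1 (25.9% of all genes), 8 in either direction (51.0% of all genes). An unadjusted p under 0.05 was found for 7 members between the numbers (21.0% of all genes), and an adjusted p under 0.1 for 4 (9.65% of all genes).

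Leaving out 1 array in turn turned the sign of TBBD minus DMSO in at least 1 fit for 7 members. PAX3, TWIST1 and EDNRB kept theirs in all 4 fits, but PAX3 and EDNRB came close to 0. PAX3 ran from -0.54 to -0.025, EDNRB from 0.001 to 0.16 and TWIST1 from 0.26 to 0.33. TFAP2B ranged most, from -0.97 without DMSO replicate 1 to 0.53 without DMSO replicate 2. These fits leave the replicate numbers unequal between the treatments. TFAP2B passed the threshold between the numbers in all 4 such fits, at 1.21 to 1.55.

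Other genes of the crest programme were read from lists of border, crest and descendant genes. No listed gene passed the test between TBBD and DMSO. Of 14 measured neural plate border genes, 11 lay lower with TBBD and 3 higher, with a median of -0.059. ZIC2, a zinc finger factor of the neural plate border, had 7.80 in TBBD replicate 2 and 6.91 in TBBD replicate 1, against 8.32 in DMSO replicate 2 and 7.83 in DMSO replicate 1, a difference of -0.72 ± 0.34 (SE, limma adjusted p = 1). Its family members ZIC5 and ZIC1 stood at -0.52 ± 0.14 and -0.28 ± 0.22 (SE). Each of the 3 was lower with TBBD in both replicate numbers. Both TBBD arrays lay below both DMSO arrays for ZIC2 and ZIC5, measured on 4 and 2 probesets, and the treatments overlapped for ZIC1. In 1 of the 14 border genes both TBBD arrays lay above both DMSO arrays. Over all genes, 20.9% did not overlap between the treatments in either direction.

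Between the replicate numbers, 10 of the 14 border genes lay lower on the replicate 2 arrays and 4 higher, with a median of -0.28, and 2 passed the test, both lower. DLX5, a homeobox gene of the border and of cranial crest, fell by 1.22 ± 0.13 (SE, limma adjusted p = 0.00371), at 6.52 in TBBD replicate 2 and 6.84 in DMSO replicate 2 against 7.90 on each replicate 1 array. MSX2, the paralog of MSX1, fell by 0.90 ± 0.12 (SE, limma adjusted p = 0.0103). ZIC2 went the other way, at 0.69 ± 0.29 (SE), and did not pass.

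Of 30 other crest specifier and migration genes, 19 lay higher on the replicate 2 arrays and 11 lower, with a median of 0.082, and 7 passed higher and 2 lower. These counts became 4 and 1 with treatment as a further term, and 3 and 1 without TBBD replicate 2 or without DMSO replicate 1. SOX6, a SoxD factor, rose by 1.71 ± 0.10 (SE, limma adjusted p = 0.000682), and the orphan nuclear receptor genes NR2F1, by 1.41 ± 0.10 (SE, limma adjusted p = 0.00098), and NR2F2, by 1.11 ± 0.10 (SE, limma adjusted p = 0.00261), did so too. ID3, a BMP target that restrains differentiation, fell by 1.11 ± 0.14 (SE, limma adjusted p = 0.00762). With TBBD 14 lay higher and 16 lower, with a median of -0.010, and the largest differences were -0.28 ± 0.36 for SNAI1, -0.25 ± 0.51 for ID3 and -0.21 ± 0.17 for MYCN (SE).

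Genes of crest descendants showed no common direction. Of 23 measured glial, melanocyte and neuronal genes, 14 lay higher and 9 lower on the replicate 2 arrays, with a median of 0.052, and 2 passed higher and 1 lower. HAND2, a factor of autonomic neurons that is also used in heart and limb, rose by 1.51 ± 0.15 (SE, limma adjusted p = 0.00302), and GATA2, shared with blood and trophoblast, fell by 0.93 ± 0.13 (SE, limma adjusted p = 0.0115). With TBBD 13 lay higher and 10 lower, with a median of 0.075. KIT, the stem cell factor receptor of melanocyte precursors, stood at 0.47 ± 0.48 (SE) with TBBD, made of 0.019 in replicate 2 and 0.93 in replicate 1. Between the numbers KIT stood at -0.95 ± 0.26 (SE) and did not pass (limma adjusted p = 0.0882). With TBBD STMN2, a neuronal gene, stood at 0.33 ± 0.44 (SE), and MITF, the melanocyte master regulator, at 0.18 ± 0.13 (SE).

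Of the 17 genes of the epithelial to mesenchymal transition, 7 lay higher and 10 lower on the replicate 2 arrays, with a median of -0.10. In that comparison 5 passed higher and 3 passed lower. Without TBBD replicate 1 this became 1 higher and 0 lower. Leaving out TBBD replicate 2 gave 3 higher and 0 lower, and leaving out DMSO replicate 1 gave 3 higher and 1 lower. ZEB2, a repressor of epithelial genes, rose by 1.01 ± 0.15 (SE, limma adjusted p = 0.0151) and the fibronectin gene FN1 by 0.88 ± 0.10 (SE, limma adjusted p = 0.00581), while the epithelial adhesion gene EPCAM fell by 1.00 ± 0.20 (SE, limma adjusted p = 0.033). SNAI2 and TWIST1, which act on this transition, did not pass in the same comparison. With TBBD the list had a median of 0.015, with 9 higher and 8 lower. The list holds epithelial genes together with repressors of them, so its median cannot show whether the transition moved.

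**Figure D4:**
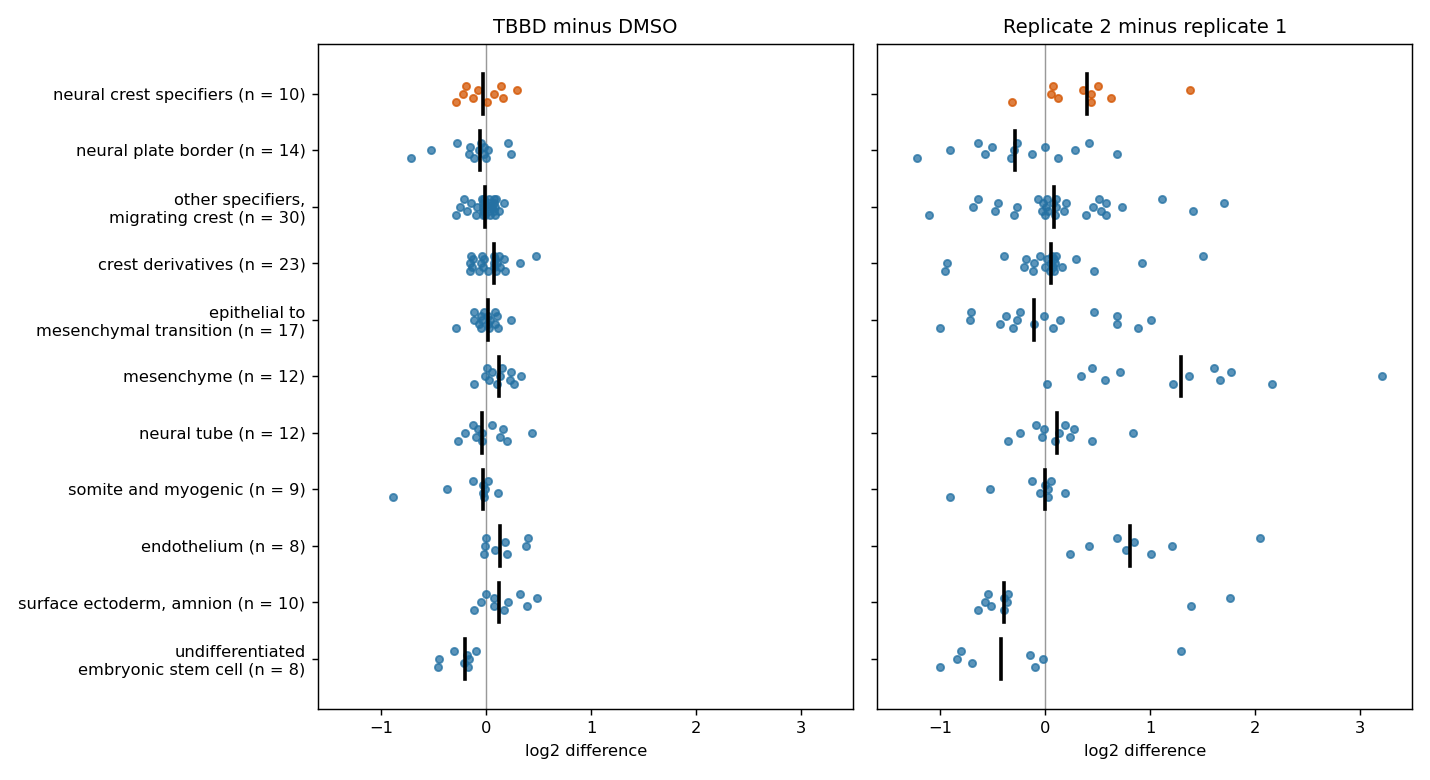
Log2 difference (horizontal axes) of every measured gene of each list, TBBD minus DMSO on the left and replicate 2 minus replicate 1 on the right, with orange points for the 10 crest specifiers, blue points for the other lists and a black bar for the median. Mesenchyme markers reach a median of 1.30 on the right, and all list medians on the left lie between -0.20 and 0.13.

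Markers of other cell types moved with the replicate number beside the crest specifiers, and their part in the values of TFAP2B, NGFR and PAX3 was not tested. All 12 mesenchyme markers lay higher on the replicate 2 arrays, 9 passing the test, with a median of 1.30. Their summed linear signal was 11893 and 10708 on the TBBD and DMSO arrays of replicate 2, against 3998 and 3414 on those of replicate 1. DCN, the proteoglycan decorin, rose by 3.21 ± 0.19 (SE, limma adjusted p = 0.000682) and the collagen gene COL3A1 by 2.16 ± 0.11 (SE, limma adjusted p = 0.000682). TWIST1, SNAI2 and MSX1, which mesenchyme also uses, stood at 0.053, 0.12 and -0.32 in that comparison.

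All 8 endothelial markers also lay higher on the replicate 2 arrays, 5 passing, with a median of 0.81 and summed signals of 1806 and 1370 in TBBD and DMSO replicate 2, against 738 and 764 in TBBD and DMSO replicate 1. Of the endothelial markers 3 passed without TBBD replicate 1 or without TBBD replicate 2. PECAM1, an endothelial adhesion gene, rose by 2.05 ± 0.18 (SE, limma adjusted p = 0.00179), and EDNRB did not pass. In replicate 1 PECAM1 read only 5.14 in TBBD and 5.30 in DMSO, below the 95th percentile of the olfactory receptors. Neural tube markers had a median of 0.12, with 2 of 12 passing, both higher: OLIG3, a factor of dorsal neural progenitors, at 0.84 ± 0.13 (SE, limma adjusted p = 0.017), and WNT1, a roof plate signal that promotes crest formation, at 0.45 ± 0.10 (SE, limma adjusted p = 0.0483). OLIG3 was equally dim in replicate 1, at 5.36 in TBBD and 5.16 in DMSO. Only 1 neural tube marker passed with treatment as a further term, quantile normalization, median centring, an intensity trend, the dimmer genes left out or any 1 array but DMSO replicate 1 left out, and 0 passed with the median over probesets or without DMSO replicate 1. The fits with the dimmer genes left out held 5 or 4 of the 12 neural tube markers, and OLIG3 was not among them. Summed signals of the neural tube markers were 891 and 854 on the TBBD and DMSO arrays of replicate 2, against 807 and 859 on those of replicate 1. Of 9 somite and myogenic markers none passed, and 4 of the 9 had a mean at or below the 95th percentile of the olfactory receptors.

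Surface ectoderm and amnion markers lay lower in 8 of 10 cases, with a median of -0.39, and the 2 that passed, IGFBP3 at 1.76 ± 0.15 (SE, limma adjusted p = 0.00189) and VTCN1 at 1.39 ± 0.20 (SE, limma adjusted p = 0.0115), were higher. Their summed signals were 6062 and 6144 on the TBBD and DMSO arrays of replicate 2, against 7193 and 6396 on those of replicate 1. Markers of undifferentiated stem cells lay lower in 7 of 8, with 4 passing lower and 1, SOX2, higher by 1.29 ± 0.20 (SE, limma adjusted p = 0.0151). SOX2 is shared by stem cells and the neural plate. POU5F1, a core pluripotency factor, fell by 0.84 ± 0.18 (SE, limma adjusted p = 0.0458). In place of 5 stem cell markers, 3 passed with quantile normalization or the median over probesets, and 2 without TBBD replicate 1, TBBD replicate 2 or DMSO replicate 1. With TBBD all 8 lay lower, at a median of -0.20, though 0 passed the test, and their part in the members' TBBD values was not tested. The summed signals of the 8 were 1336 and 1705 on the TBBD and DMSO arrays of replicate 2, against 2099 and 2201 on those of replicate 1. RMA gives no true 0, so no marker could be called absent.

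The genes nearest to TFAP2B in pattern, by Euclidean distance between log2 values centred over the 4 arrays and among 16819 genes on at least 3 probesets, were HSPB6 at 0.17, EYA1 at 0.21 and PAPPA2 at 0.24. HSPB6, on 3 probesets, had 6.04 in TBBD replicate 2 and 4.71 in TBBD replicate 1, against 6.24 in DMSO replicate 2 and 4.65 in DMSO replicate 1. Nearest to NGFR were DYRK4 at 0.020, CAST at 0.026 and NBEA at 0.040. With 4 arrays such nearness describes these samples only.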

How the data were processed

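RNA from 4 Human Gene 1.0 ST arrays was used, 2 per treatment. The deposited values are log2 RMA signals, 1 per exon-level probeset and array. Per the submitters' processing notes the authors used RMA; its version and settings were not given in the sources used here, and the values themselves showed the log2 scale. Placeholder values filled 358 cells, and the 277 probesets holding one, none of them of the 10 genes, were left out. Symbols came from the platform annotation and older ones were updated through a RefSeq table (16056 current, 2528 updated, 99 kept). The 218927 probesets with 1 symbol were averaged per gene.

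Groups and replicate numbers came from the sample titles. Limma 3.58.1 in R 4.3.3 tested each comparison on all 4 arrays and 18640 genes with 1 term, two-sided, at an adjusted p of 0.05. The fit was tested on simulated data that held no difference between replicate numbers. That test therefore cannot show how readily a TBBD difference would be found in these arrays. Python 3.11.15 with pandas 2.3.3 and matplotlib 3.10.9 made summaries and figures. The 10 genes, the lists and the tests were chosen with earlier results of these data known. Named besides the 10 were, per list, up to 3 genes with the largest size of difference in either comparison, and the 3 genes nearest to each member that passed. Single probesets were chosen as those with the highest or lowest mean or difference, and the other readings named were chosen after seeing their values. Alternatives are given in the closing part.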

Additional observations from a re-analysis of the deposited data

How the results depend on the processing

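No gene passed between TBBD and DMSO under any alternative, the replicate number as a block (replicate block) included, which gave 496 genes at an unadjusted p under 0.05 in limma, against 139 without it. Under the block PAX3 stood at -0.28 (unadjusted p = 0.0417, against 0.307 without it) and TWIST1 at 0.30 (unadjusted p = 0.0364, against 0.0461 without it), and 0 of the 10 passed. Over the other alternatives the unadjusted p of TWIST1 ran from 0.0425 to 0.179. Across genes, replicate 2 minus replicate 1 within TBBD and within DMSO correlated at 0.566; with 2 pairs and no label for the number, this does not establish a pairing. Between the numbers, the 1001 genes became 653 with treatment as a further term, 0 on single probesets, 1798 at an adjusted p under 0.1, and 368 without TBBD replicate 2, 436 without DMSO replicate 1, 534 without TBBD replicate 1 and 685 without DMSO replicate 2. Of the 10 crest specifiers 2 passed, against 1 with the median over probesets (3.67% of all genes passed), 0 on single probesets, 4 at an adjusted p under 0.1, and 1 to 2 with 1 array left out. SOX10 passed as a 3rd gene among genes with at least 3 probesets (6.91% of those genes passed) and among the brightest 2 of 3 genes (9.3% of those genes passed). The TBBD difference of MSX1 turned to 0.031 with the median over probesets. TFAP2B passed between the numbers in every gene-level alternative, at limma adjusted p from 0.00112 to 0.0197. Over all gene-level alternatives the number of listed genes that passed between the numbers ran from 1 to 8 for the epithelial to mesenchymal transition, 4 to 10 for other crest specifiers, 2 to 3 for crest descendants and for border genes, 7 to 9 for mesenchyme, 3 to 7 for endothelium, 0 to 2 for neural tube and for somite, 2 to 4 for surface ectoderm and 2 to 5 for stem cell markers. The cause of these changes was not tested. With 1 array left out, the lone array of its group is assumed to vary like the others.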
